A study of Mus musculus with 30 samples.

Results

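The genes described here are 10 neighbours near the distal end of mouse chromosome 11, read together for a shared change in expression: Ccdc137, Hgs, Mrpl12, Slc25a10, P4hb, Arhgdia, Anapc11, Sirt7, Mafg and Slc16a3. They were picked by symbol, with their expression change in these samples already known, from tables that hold 20286 gene symbols. All 10 were found, and all had at least 1 FPKM (mapped fragments scaled by transcript length and by the library's mapped total) in either genotype, as did 12053 genes in all. The cells were mouse embryonic stem (ES) cells of strain C57BL/6-ICR, either with Tdg deleted (Tdg -/-) or with floxed, undeleted alleles of Tdg (fl/fl). RNA was polyA RNA from 2 libraries for each genotype, pooled by the authors to 1 FPKM value per gene and genotype. Lists of DNA regions enriched for 5-formylcytosine (5fC) and 5-hydroxymethylcytosine (5hmC) and of p300 chromatin immunoprecipitation regions, also 1 pooled list per group, came from 2 libraries a group for 5fC and 5hmC and 3 for p300. The 5fC and 5hmC lists of fl/fl embryoid bodies (EB), grown for 5 days without LIF and the inhibitors CHIR99021 and PD0325901, were used as well. The sources used here do not state whether each genotype is 1 clone or whether both came from 1 line. No value below has a replicate to set it against, so changes are described with no test.

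Thymine DNA glycosylase, the product of Tdg, excises 5fC and 5-carboxylcytosine, which TET enzymes make by oxidizing 5-methylcytosine by way of 5hmC. p300 is a histone acetyltransferase found at active enhancers. Genes that neighbour each other on a chromosome often have unrelated functions, and the 10 genes do: they act in protein folding, mitochondria, endosomes, mitosis, chromatin and transport.

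The promoters are shown because the members were lower together while Npb, Ccdc57 and Pycr1, which lie among them, were not. For 4 members the 250 bases before the annotated start hold no annotated gene at all, and these are shown, with Pycr1, a gene that lies between the members and was higher in Tdg -/- cells, for contrast. Each is from RefSeq, build GRCm38.p6, written 5′ to 3′ on the gene's strand with CpG dinucleotides, the main substrate of cytosine methylation, in capitals. Mrpl12 lies at chr11:120484387-120484636 on the plus strand, Slc25a10 at chr11:120491587-120491836 (plus), P4hb at chr11:120573254-120573503 (minus), Arhgdia at chr11:120581625-120581874 (minus) and Pycr1 at chr11:120643749-120643998 (minus).
Mrpl12: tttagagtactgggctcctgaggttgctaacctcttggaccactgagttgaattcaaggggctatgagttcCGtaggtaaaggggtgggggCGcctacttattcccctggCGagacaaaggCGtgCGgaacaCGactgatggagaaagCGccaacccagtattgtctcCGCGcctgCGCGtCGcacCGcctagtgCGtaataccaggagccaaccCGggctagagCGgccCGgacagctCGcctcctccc
Slc25a10: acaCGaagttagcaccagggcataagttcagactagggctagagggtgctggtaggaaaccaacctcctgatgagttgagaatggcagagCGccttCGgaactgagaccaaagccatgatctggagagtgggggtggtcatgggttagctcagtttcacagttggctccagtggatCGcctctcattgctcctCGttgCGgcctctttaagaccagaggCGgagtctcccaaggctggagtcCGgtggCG
P4hb: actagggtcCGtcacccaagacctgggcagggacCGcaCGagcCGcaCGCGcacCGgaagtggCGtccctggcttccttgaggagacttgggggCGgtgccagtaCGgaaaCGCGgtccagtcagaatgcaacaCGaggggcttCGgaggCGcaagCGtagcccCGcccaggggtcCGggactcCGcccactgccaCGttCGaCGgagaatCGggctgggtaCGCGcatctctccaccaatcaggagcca
Arhgdia: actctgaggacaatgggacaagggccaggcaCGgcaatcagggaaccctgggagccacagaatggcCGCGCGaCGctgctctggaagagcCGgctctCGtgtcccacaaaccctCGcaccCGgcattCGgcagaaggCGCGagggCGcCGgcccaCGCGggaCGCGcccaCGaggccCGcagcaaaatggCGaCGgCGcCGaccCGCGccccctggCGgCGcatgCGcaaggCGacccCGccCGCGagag
Pycr1: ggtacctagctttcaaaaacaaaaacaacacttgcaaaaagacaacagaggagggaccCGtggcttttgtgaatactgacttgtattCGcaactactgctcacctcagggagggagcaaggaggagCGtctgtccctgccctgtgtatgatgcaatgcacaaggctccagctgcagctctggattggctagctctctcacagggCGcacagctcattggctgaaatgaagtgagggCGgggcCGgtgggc

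These windows held 18 CpG in Mrpl12, 9 in Slc25a10, 25 in P4hb and 33 in Arhgdia, against 6 in Pycr1. Pycr1, which had the highest change between the members, was the only gene shown for contrast. The windows of Npb and Ccdc57 are not shown, and a link between CpG number and expression change was not tested. Over the 10 members the number ran from 9 to 38 with a median of 24, and 8 of the 10 stood above 16, the median of 9477 measured genes with a window. The windows with the fewest CpG were those of Slc25a10 and Sirt7, and the one with the most was that of Anapc11. A GC box (GGGCGG, either strand) was present in 7 of 10 members and in 61.0% of the 9477 windows. CCAAT was present in 2 of 10 and in 37.6% of all. ACGTG, the core of the hypoxia response element, whose match on the opposite strand can overlap it, was present in P4hb, Mafg and Slc16a3, 3 of 10, against 22.4% of all. TGAGTCA, the core that AP-1 and Maf sites share, was in none of the 10 windows and in 2.83% of all.

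All 10 members were lower in Tdg -/- than in fl/fl ES cells, which is how they were chosen. The changes, log2((Tdg -/- FPKM + 1)/(fl/fl FPKM + 1)), ran from -1.19 to -0.70 with a median of -1.01, and 10 of 10 were at or below -0.5. Among all 12053 measured genes 1.63% were at or below -0.5, and 0.174% at or below -1, where 5 of the 10 members lay. As these values chose the members, nothing is read from the counts. Summed over the 10 genes, expression was 455.6 FPKM in Tdg -/- and 969.8 FPKM in fl/fl cells, so that 47.0% was left. In bulk RNA, fewer cells that express a gene and less RNA in each cell cannot be told apart.

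**Figure D1:**
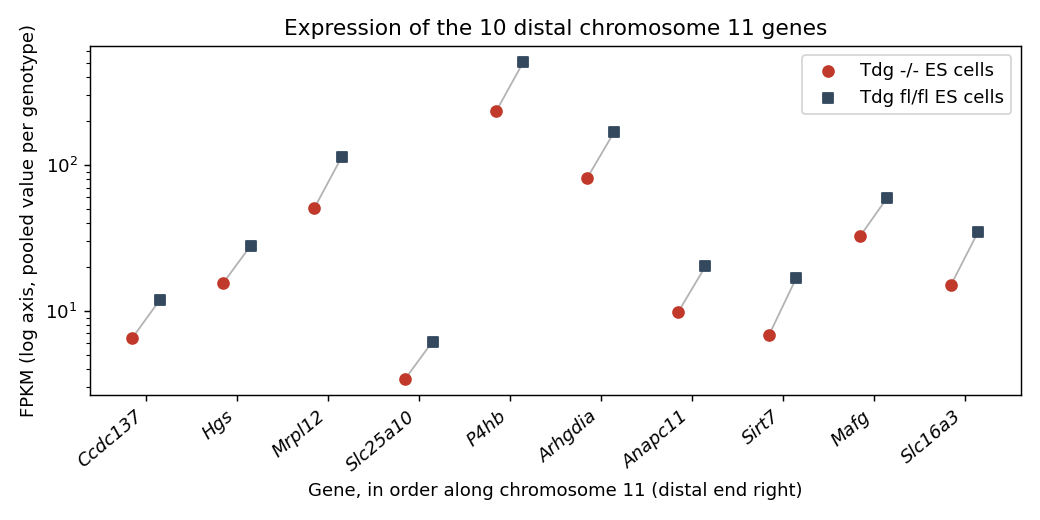
Pooled FPKM (log axis) of each of the 10 genes, in chromosomal order, in Tdg -/- ES cells (circles, left of each pair) and Tdg fl/fl ES cells (squares). Every gene is lower in Tdg -/- cells, from Slc25a10 at 3.42 against 6.17 FPKM to P4hb at 234.0 against 509.8 FPKM, and there are no error bars because each genotype has 1 value.

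The members with the highest levels were P4hb and Arhgdia. P4hb encodes protein disulfide isomerase, which forms disulfide bonds in the endoplasmic reticulum and is also the beta subunit of collagen prolyl 4-hydroxylase. It stood at 234.0 FPKM in Tdg -/- and 509.8 FPKM in fl/fl cells (log2 change -1.12), a fl/fl level above that of 99.0% of measured genes. Arhgdia was at 81.3 FPKM in Tdg -/- and 169.4 FPKM in fl/fl cells (-1.05). In FPKM the difference, Tdg -/- minus fl/fl, was -275.8 for P4hb and -88.1 for Arhgdia, the largest of the 10.

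A pair of members act in mitochondria. Mrpl12, a protein of the large mitochondrial ribosomal subunit, was at 50.6 FPKM in Tdg -/- and 113.0 FPKM in fl/fl cells (log2 change -1.14). Slc25a10, the dicarboxylate carrier that exchanges malate and succinate for phosphate across the inner membrane, was the member with the lowest level, at 3.42 FPKM in Tdg -/- and 6.17 FPKM in fl/fl cells (-0.70). They lie next to each other among the measured genes and differ widely in level, with Slc25a10 at the small end of the changes.

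Others regulate transcription, chromatin and the cell cycle. Sirt7, a nuclear NAD-dependent deacylase linked to ribosomal DNA transcription, had the lowest log2 change, with 6.83 FPKM in Tdg -/- and 16.9 FPKM in fl/fl cells (-1.19). Mafg, a small Maf protein that pairs with CNC factors such as Nrf2 at antioxidant response elements, was at 32.4 FPKM in Tdg -/- and 59.8 FPKM in fl/fl cells (-0.86). Anapc11, the RING subunit of the anaphase-promoting complex, was at 9.79 FPKM in Tdg -/- and 20.2 FPKM in fl/fl cells (-0.97). Sirt7 and Mafg are neighbours among the measured genes, and Mafg, with the higher level, had the smaller change.

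The remaining 3 members include a sorting protein and a transporter. Hgs, the ESCRT-0 subunit that gathers ubiquitinated receptors on endosomes, was at 15.6 FPKM in Tdg -/- and 28.0 FPKM in fl/fl cells (log2 change -0.80). Ccdc137, a coiled-coil protein, was at 6.54 FPKM in Tdg -/- and 11.9 FPKM in fl/fl cells (-0.77). Slc16a3, the lactate exporter of glycolytic cells, was at 15.0 FPKM in Tdg -/- and 34.9 FPKM in fl/fl cells (-1.16). In RefSeq, Ccdc137 overlaps Arl16 and Slc16a3 overlaps Csnk1d. The sources used here do not state whether reads were assigned by strand, so reads of such pairs may be split between them.

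By fl/fl level the order was P4hb, Arhgdia, Mrpl12, Mafg, Slc16a3, Hgs, Anapc11, Sirt7, Ccdc137 and Slc25a10. In Tdg -/- cells the order was the same except that Hgs, at 15.6 FPKM, stood above Slc16a3, at 15.0 FPKM. With 1 value per genotype no spread tells which neighbours in the order differ. As the part of the fl/fl FPKM left in Tdg -/- cells, the members fell in 2 ranges. In 6 of them it was between 40.5% (Sirt7) and 48.6% (Anapc11), and in Mafg, Ccdc137, Slc25a10 and Hgs it was between 54.3% and 55.7%. Other genes of the span fell between these ranges, Arl16 at 49.3%, Pcyt2 at 51.8% and Rac3 at 53.4%, so the gap depends on which genes were listed. The ranges did not follow the order along the chromosome, since Mrpl12 at 44.8% lies between Hgs at 55.7% and Slc25a10 at 55.5%.

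The 10 genes are not an unbroken row. From Ccdc137 to Slc16a3 the RefSeq order of GRCm38.p6 holds 37 genes, of which 25 were measured: the 10 members and 15 others. Of the 15 others, 12 were below 0 (80.0%, against 54.9% of all measured genes and 83.7% of chromosome 11 outside the span). At or below -0.5 were 6 of the 15, against 1.63% of all measured genes and 5.85% of chromosome 11 outside the span. The median of the 15 others was -0.40, against -0.02 for all measured genes and -0.21 for chromosome 11 outside the span. They split at Mafg, a division made after seeing the values. Between Ccdc137 and Mafg lie 4 others. Pcyt2, an enzyme of phosphatidylethanolamine synthesis, was at 21.7 FPKM in Tdg -/- and 41.9 FPKM in fl/fl cells (log2 change -0.92). Arl16, a small GTPase of the ARF-like family, was at 2.68 FPKM in Tdg -/- and 5.44 FPKM in fl/fl cells (-0.81). Fam195b, named Mcrip1 in RefSeq, was at 13.5 FPKM in Tdg -/- and 23.9 FPKM in fl/fl cells (-0.78). These 3 changes lie inside the range of the members. The fourth, Npb, which encodes the neuropeptide B precursor, was at 2.11 FPKM in Tdg -/- and 1.95 FPKM in fl/fl cells (0.08). Of the 13 measured genes from Ccdc137 to Mafg, then, 12 were between -1.19 and -0.70 and 1, with a low level, was not lower. All but the 4 others are members, chosen for low values, and the bounds are the members' own extremes. Nothing is therefore read from the 12 of 13, and only 3 of the 4 others bear on the range.

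Beyond Mafg the change was smaller and more mixed. The 11 measured genes between Mafg and Slc16a3 had a median of -0.37 and ran from -0.75 to 0.48. Pycr1, which makes proline in mitochondria, is the first of them in order and was higher in Tdg -/- cells, at 16.4 FPKM against 11.4 FPKM in fl/fl cells (log2 change 0.48). The next measured gene, Notum, a secreted Wnt deacylase, was at 25.1 FPKM in Tdg -/- and 40.1 FPKM in fl/fl cells (-0.65). Rac3 was at 3.49 FPKM in Tdg -/- and 6.54 FPKM in fl/fl cells (-0.75). Aspscr1 (-0.29), Dcxr (-0.02) and Ccdc57 (0.08) were the other highest. Slc16a3, at -1.16, thus lay beyond these 11 genes, with Ccdc57 before it and Csnk1d (-0.27) after it.

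On the proximal side the change differed between adjacent genes. The 5 measured genes before Ccdc137 were Bahcc1 (0.20), the cytoplasmic actin gene Actg1 (-0.44), 2310003H01Rik (-0.34), Nploc4 (-0.34) and 1810049H13Rik, the gene Oxld1 in RefSeq (-0.0025). The last of these stood at 2.61 FPKM in Tdg -/- and 2.61 FPKM in fl/fl cells, directly before Ccdc137 at -0.77. On the distal side the 5 after Slc16a3 were Csnk1d (-0.27), Cd7 (-0.22), Tex19.2 (-0.40), Tex19.1 (-0.51) and 1110031I02Rik (-0.07). The last 5 measured genes of the chromosome were Wdr45l (-0.36), Fn3krp (-0.30), Tbcd (-0.21), Zfp750 (-0.39) and B3gntl1 (-0.03). None of these 15 flanking genes reached the -0.70 of the highest member.

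**Figure D2:**
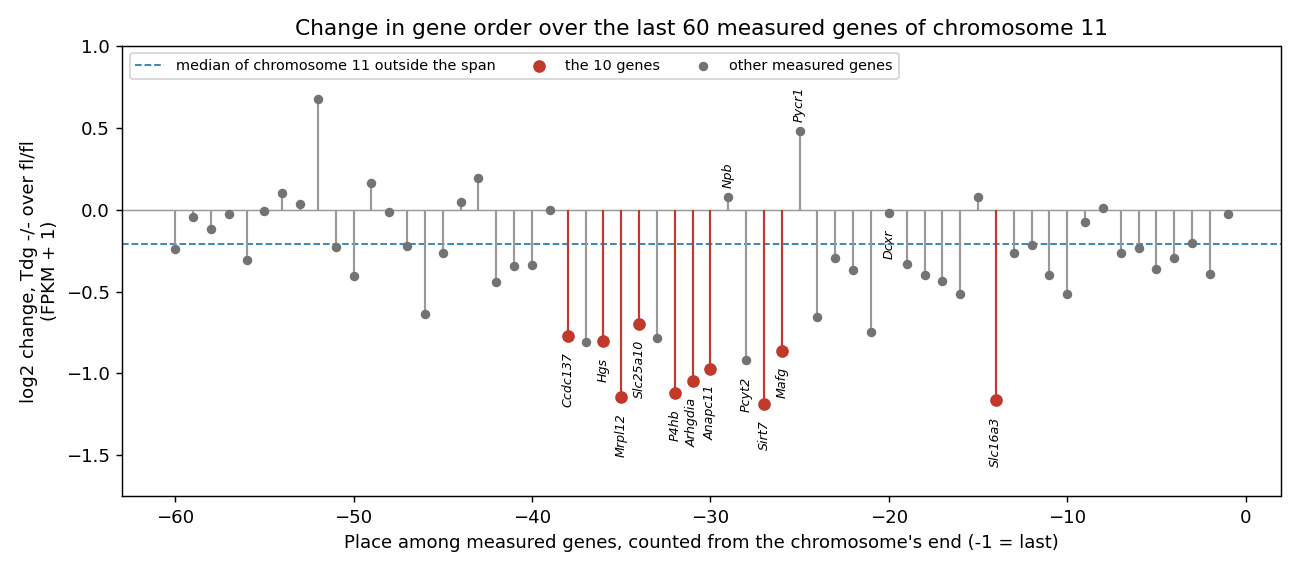
log2 change (Tdg -/- over fl/fl, FPKM + 1) of the last 60 measured genes of chromosome 11 in RefSeq order, with the chromosome's end at the right, red for the 10 genes and grey for others, and a dashed line at -0.21, the median of the chromosome outside the span. From Ccdc137 to Mafg 12 of 13 genes lie between -1.19 and -0.70, Npb and Pycr1 stand above 0, and Slc16a3 lies alone among smaller changes. The red genes were chosen for low values, and all but 4 of the 13 are red.

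The members sit on a chromosome that was lower as a whole. Of the 974 measured genes of chromosome 11 outside the span from Ccdc137 to Slc16a3, 815 were below 0, and their median was -0.21, against -0.01 for 10977 measured genes of the other chromosomes. In plain FPKM their median left in Tdg -/- cells was 84.7%, against 99.3% off chromosome 11 and 48.3% in the 10 members. In windows of 50 measured genes counted from the end, the last window, which holds the members, had a median of -0.36, and the 18 windows before it lay between -0.26 and -0.13. The last windows of the other 19 chromosomes lay between -0.07 and 0.13, and all 210 of their windows between -0.13 and 0.45. The lowest of these, on chromosome 13, was thus level with the highest of chromosome 11, and the 0.45 was a window of chromosome 6. Without the genes from Ccdc137 to Mafg, a choice made after seeing the data, the median at the end of the chromosome was -0.24. After subtraction of the -0.21 of the chromosome, the members' changes were -0.98 (Sirt7) to -0.49 (Slc25a10), as a description only, since they were chosen for low values.

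**Figure D3:**
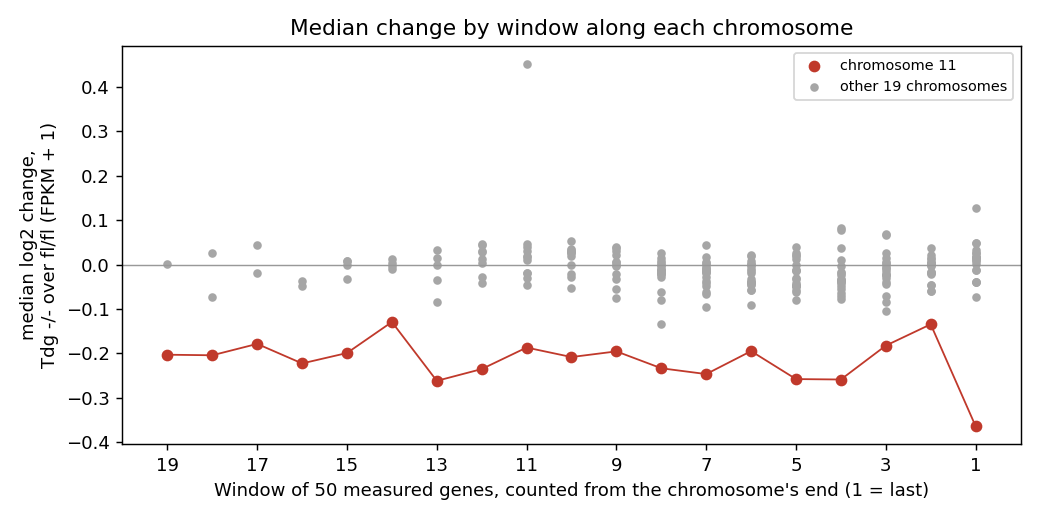
Median log2 change (Tdg -/- over fl/fl, FPKM + 1) of consecutive windows of 50 measured genes, counted from the end of each chromosome, for chromosome 11 (red, joined) and the other 19 chromosomes (grey). Chromosome 11 lies between -0.26 and -0.13 in 18 windows and at -0.36 in the last, which holds the 10 genes, while the others lie between -0.13 and 0.45.

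Running windows of 11 measured genes, 11776 in all, had their lowest median, -0.92, around Anapc11, which follows from the choice of the members. The lowest with no gene of the span was on the same chromosome around Pelp1, at -0.57, and the lowest off chromosome 11 was on chromosome 13, around Abt1, at -0.30. Single genes as low as the members were found elsewhere too. Of 8826 genes with at least 5 FPKM in either genotype, 48 were at or below -0.70, and 26 of the 48 lay on other chromosomes, 22 on chromosome 11. Those 22 included the 10 members and 4 others of the span. Off chromosome 11 the genes with changes closest to the members' median were Igf2 on chromosome 7 (-0.99), Id3 on chromosome 4 (-0.98), Emp1 on chromosome 6 (-0.94), Dppa3 on chromosome 6 (-1.09) and Ndufa4l2 on chromosome 10 (-0.92). With 1 value per genotype, likeness to the members means only a like ratio.

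Genes that work with the members but mostly lie elsewhere had smaller differences. As the members were chosen for low values and these genes were not, that contrast follows from the choice and is a description only. The 8 lists of such partners held 108 measured genes. Of these, 2 were at or below -0.5 and 1 was at or above 0.5, where 1.63% and 1.82% of all measured genes were, and the medians of the lists ran from -0.20 to 0.14. None of the 14 measured subunits and activators of the anaphase-promoting complex reached -0.5 (median -0.09), with Cdc20 at -0.31, Cdc27 at -0.29 and Cdc26 at -0.27. The 7 measured ESCRT-0 and ESCRT-I genes had a median of -0.09, with Vps37b at -0.26, Stam at -0.17 and Tsg101 at -0.11.

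The large mitochondrial ribosomal subunit had the lowest median of the 8 lists. Of its 45 measured genes, 44 were below 0, as were 54.9% of all measured genes, with a median of -0.20 (-0.19 without the 6 on chromosome 11), and 1 gene, Mrpl55 on chromosome 11, was at or below -0.5 (-0.50). Mrpl20 (-0.45) and Mrpl10 (-0.43) followed, and none was as low as Mrpl12 at -1.14. The 9 measured carriers related to Slc25a10 had a median of -0.04, with the aspartate-glutamate carrier Slc25a13 at 0.67, Slc25a11 on chromosome 11 at -0.42 and Slc25a27 at 0.26.

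The remaining lists had medians from -0.07 to 0.14. Protein disulfide isomerases and prolyl hydroxylases had a median of -0.07 over 14 genes, with P4ha1, an alpha subunit of collagen prolyl 4-hydroxylase, at -0.40, P4ha2 at -0.30 and Pdia6 at -0.22. The other 6 sirtuins had a median of 0.01, from -0.12 for Sirt1 to 0.20 for Sirt4, with Sirt2 at -0.08. Small Maf and CNC genes had a median of 0.14 over 6, with Bach1 at 0.25, Nfe2l2 at 0.19 and Maff at 0.14. Monocarboxylate transporters and their chaperones had a median of 0.06 over 7, with Slc16a13 on chromosome 11 at -0.59, Slc16a4 at 0.32 and the chaperone gene Emb at 0.21.

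**Figure D4:**
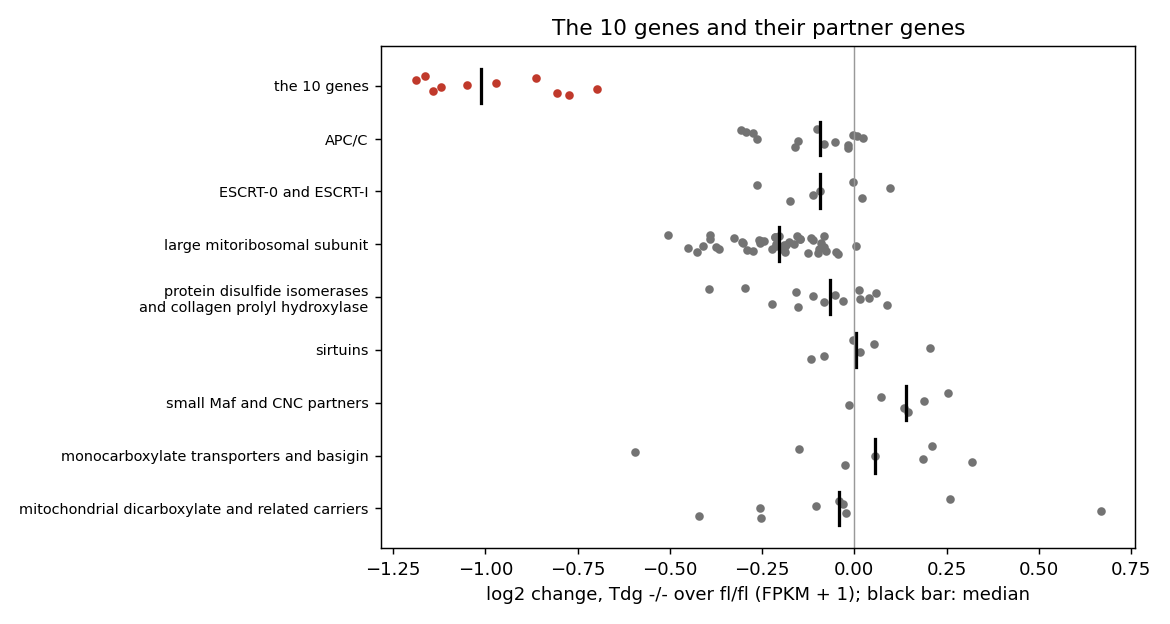
log2 change (Tdg -/- over fl/fl, FPKM + 1) of the 10 genes (red, top) and of each list of partner genes (grey), 1 point per measured gene and a black bar at the median. The 10 genes, chosen for low values, have a median of -1.01 and the 8 lists, not chosen so, medians between -0.20 and 0.14.

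The cells carried ES cell markers in both genotypes. The 7 markers, among them Pou5f1, Sox2 and Nanog, summed to 6289 FPKM in Tdg -/- and 6137 FPKM in fl/fl cells, with none below 31.6 FPKM. Most of each sum was Dppa5a, at 4691 FPKM in Tdg -/- and 4571 FPKM in fl/fl cells. The log2 changes were -0.04 for Pou5f1, 0.24 for Sox2 and -0.05 for Nanog. Utf1 was higher in Tdg -/- cells, at 46.1 FPKM against 31.6 FPKM in fl/fl cells (0.53). The 5 fibroblast markers summed to 2.13 FPKM in Tdg -/- and 2.87 FPKM in fl/fl cells, and Lum was listed at 0 in both. The 5 germ layer markers summed to 0.83 FPKM in Tdg -/- and 1.25 FPKM in fl/fl cells. Tdg, on chromosome 10, was at 9.48 FPKM in Tdg -/- and 22.1 FPKM in fl/fl cells, and the sources used here do not state which part of it was deleted.

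The region lists are a readout that did not enter the choice of the 10 genes. Region numbers grow with sequencing depth, which is unknown, so each ratio is set against the same ratio on other chromosomes with at least 100 regions in the fl/fl ES list. In the last 5 Mb of chromosome 11, up to the last region at 121826060 in mm9, there were 1014 5fC regions in Tdg -/- and 290 in fl/fl ES cells. The ratio was 3.50 (exact 95% interval 3.07 to 3.998, for the counting of regions only), and on the last 5 Mb of 13 other chromosomes it ran from 1.69 to 2.46. For 5hmC there were 1140 regions in Tdg -/- and 641 in fl/fl ES cells, a ratio of 1.78 (1.61 to 1.96), against 1.07 to 1.38 on 14 other chromosomes. For p300 there were 144 in Tdg -/- and 200 in fl/fl ES cells, a ratio of 0.72 (0.58 to 0.90), against 1.22 to 1.61 on 5 others. The p300 ratio was 0.79 in the rest of chromosome 11, so it was not particular to the distal end, and 0.89 in the last 2 Mb. The 5fC and 5hmC ratios were not particular to the distal end either. In the rest of chromosome 11 they were higher, at 4.09 and 2.25. For each of the 3 lists the whole interval, which treats regions as independent, lay outside the range of these other chromosomes. It lay above it for 5fC and 5hmC and below it for p300. With regions closer than 1 kb merged, chromosome 11 stood at 2.47 for 5fC, 1.32 for 5hmC and 0.76 for p300. No merged range of the other chromosomes is given here, so whether chromosome 11 stays outside it was not tested. Without merging, chromosomes with fewer than 100 regions in the fl/fl list do not all lie in the ranges above. The last 5 Mb of chromosome 12 held 113 5fC regions in Tdg -/- and 38 in fl/fl ES cells (2.97). On chromosomes 17, 18 and X, with 13, 6 and 22 5fC regions in Tdg -/- and 3, 1 and 4 in fl/fl ES cells, the ratios were 4.33, 6.00 and 5.50, above that of chromosome 11. The whole of chromosome X held 548 in Tdg -/- and 104 in fl/fl ES cells (5.27).

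The same 5 Mb were then compared between EB and ES cells that share the fl/fl genotype. For 5fC the last 5 Mb held 269 regions in EB and 290 in ES cells, a ratio of 0.93 (0.78 to 1.10), against 0.31 to 0.63 on 13 other chromosomes. For 5hmC it held 583 in EB and 641 in ES cells, a ratio of 0.91 (0.81 to 1.02), inside the 0.54 to 0.98 of 14 others. Chromosome 12 again came close for 5fC, with 35 regions in EB and 38 in ES cells (0.92). Chromosomes 3, 17, 18 and X, with few 5fC regions in their last 5 Mb, stood above chromosome 11. They held 8, 6, 1 and 10 regions in EB and 4, 3, 1 and 4 in ES cells. Their ratios were 2, 2, 1 and 2.5. The whole of chromosome X held 106 5fC regions in EB and 104 in ES cells (1.02). For 5hmC it held 837 in EB and 431 in ES cells (1.94). Both this comparison and that of the genotypes use the fl/fl ES list, so they are not independent. In the rest of chromosome 11 the 5fC ratios were 4.09 for Tdg -/- over fl/fl and 0.93 for EB over ES cells, and the 5hmC ratios 2.25 and 1.21.

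Within the last 2.5 Mb, 1 stretch with many fl/fl ES regions had a lower 5fC ratio than its sides. It was chosen after seeing the counts and lies 1.3 to 1.5 Mb before the last region. Its high fl/fl counts by themselves lower any ratio to the fl/fl list. In the stretch the 5fC lists held 29 regions in Tdg -/- and 25 in fl/fl ES cells, a ratio of 1.16 (0.66 to 2.07). In the 0.5 Mb on its proximal side they held 120 in Tdg -/- and 33 in fl/fl cells (3.64, 2.46 to 5.52), and in the 0.5 Mb on its distal side 86 in Tdg -/- and 17 in fl/fl cells (5.06, 2.98 to 9.08). By covered length the ratio was 1.61 in the stretch, against 6.10 and 7.84 at its sides. The fl/fl list was denser in the stretch, with 12.5 regions per 100 kb against 6.6 and 3.4 at the sides, while the Tdg -/- list had 14.5 against 24.0 and 17.2. Over the 57 bins of 100 kb on chromosome 11 with at least 10 fl/fl 5fC regions, the median ratio was 2.33. The bins of the stretch, at 1.33 and 1.00, took places 3 and 1 from the lowest.

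For 5hmC the ratio in the stretch was closer to that at its sides. Its lists there held 41 regions in Tdg -/- and 39 in fl/fl ES cells, a ratio of 1.05 (0.66 to 1.67), against 1.41 on the proximal and 2.26 on the distal side. The interval of the proximal side (1.03 to 1.92) overlaps that of the stretch, and a bin at 1.7 to 1.8 Mb, outside it, also held 18 regions in each list. Over the 279 bins of 100 kb on chromosome 11 with at least 10 fl/fl 5hmC regions, the median ratio was 1.77. The bins of the stretch, both at 1.05, took places 8 and 7 from the lowest. EB, which share the fl/fl genotype, had fewer regions in the stretch, which may follow from its choice with high fl/fl ES counts seen. The EB lists held 5 5fC regions against 25 in fl/fl ES cells (0.20, 0.060 to 0.53), where the sides had ratios of 0.88 and 1.18, and 20 5hmC regions against 39 (0.51, 0.28 to 0.90), where the sides had 0.72 and 1.35. Over the bins with at least 10 fl/fl ES regions, the median EB over ES ratio was 0.54 for 5fC and 0.92 for 5hmC. For 5fC the bins of the stretch, at 0.17 and 0.23, took places 5 and 7 from the lowest of 57. For 5hmC they stood at 0.58 and 0.45, places 25 and 8 of 279.

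p300 regions in the stretch numbered 12 in Tdg -/- and 11 in fl/fl ES cells, and 7 of each overlapped a region of the other list. Over all chromosomes 57.8% of p300 regions in Tdg -/- and 78.4% of those in fl/fl ES cells did so, and on chromosome 11 the shares were 72.9% in Tdg -/- and 57.9% in fl/fl cells. The region with the highest score in the stretch overlapped between the lists, at 120523863 to 120525620 on chromosome 11 of mm9 in Tdg -/- cells (score 2463) and at 120523858 to 120525607 in fl/fl cells (score 1666). Scores, which are the authors', were read within each list only. At these numbers a ratio of 1.09 (0.44 to 2.73) cannot be told from the 0.72 of the last 5 Mb, and it was 0.50 among regions scoring above their list's median and 1.5 in the inner 100 kb of the stretch.

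The lists are placed in mm9 and the gene order was taken from GRCm38.p6, so regions were not assigned to genes, and whether the stretch holds the genes from Ccdc137 to Mafg was not tested.

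**Figure D5:**
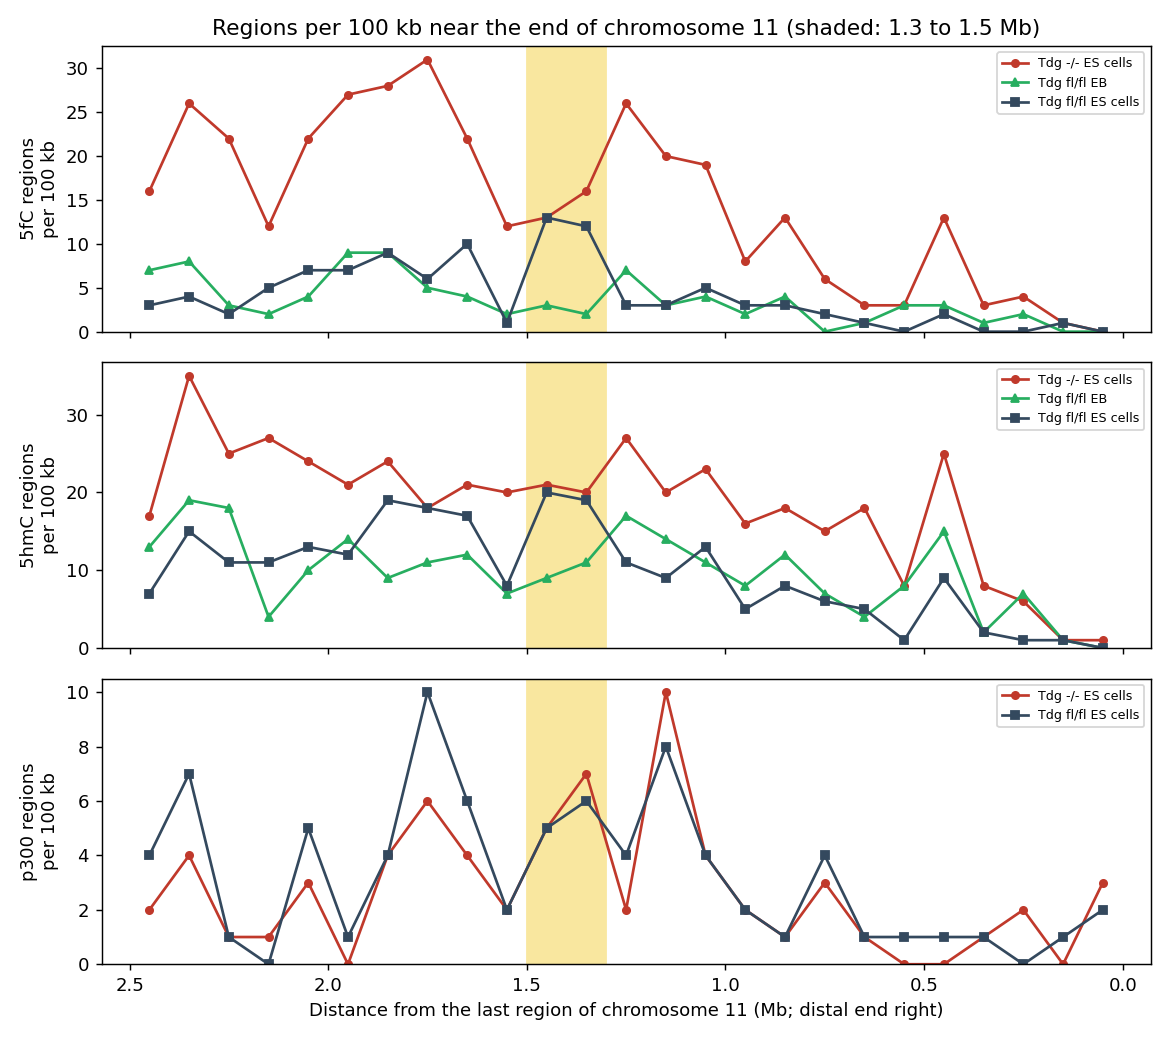
Number of 5fC (top), 5hmC (middle) and p300 regions (bottom) per 100 kb over the last 2.5 Mb of chromosome 11, by distance from the last region, in Tdg -/- ES cells (circles), Tdg fl/fl EB (triangles, 5fC and 5hmC) and Tdg fl/fl ES cells (squares), with the stretch from 1.3 to 1.5 Mb shaded. In the stretch, chosen after seeing the counts, fl/fl ES cells had 25 5fC regions, close to the 29 of Tdg -/- cells and above the 5 of EB.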

How the data were processed

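Expression values are FPKM computed by the authors: 20437 rows for 20286 symbols, 1 value per genotype. The submitters' processing notes name TopHat 1.4.1, Cufflinks 1.3.0, Bowtie, MACS 1.4 and mm9. How replicates were combined, and the sequencing depth, are not stated there. Each region has a score deposited by the authors. In the 5fC and 5hmC lists of ES cells the file headers define it as -10 log10(p), and the p300 and EB lists, without headers, were read on that scale from their values. Scores began at 60.92 in fl/fl ES 5fC and at 50 elsewhere.

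Rows of 1 symbol were summed. A pseudocount of 1 FPKM was added before taking log2, so changes of low genes come out smaller. Genes with 1 FPKM in either genotype counted as measured, and 0.5 and 1 on the log2 scale were the sizes counted. Of the symbols, 20119 were placed in RefSeq GRCm38.p6 by symbol or synonym, for gene order only. Of 12053 measured genes 11976 were placed. Regions were counted by their centre. Intervals are exact binomial (Clopper-Pearson) at 95%, turned into ratios, and cover counting error only. Promoter windows overlapping on opposite strands matched in 1133 of 1133 pairs. Python 3.11.15, pandas 2.3.3, numpy 2.4.6, scipy 1.17.1 and matplotlib 3.10.9 were used, and the gene windows and region counts were tested on simulated data.

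The members, lists and windows were chosen with earlier results of these data known. Genes named were the members, the 5 lowest and 5 highest changes between them and any at or above 0, 5 genes on either side, the last 5 of the chromosome, up to 3 per partner list and any past 0.5, the 5 closest off chromosome 11, and Tdg. Alternatives changed the pseudocount, scaling, FPKM minimum, summing of rows, window sizes, score minimum, merging and the use of covered length. Of 30 libraries 22 were used, and the input, control and H3K4me1 libraries were not analysed here. A further partner list is not reported here.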

Additional observations from a re-analysis of the deposited data

How the results depend on the processing

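No paired analysis was possible because each group has 1 pooled value or list, and for the same reason no replicate could be left out. The 10 members kept their direction and a change of at least 0.5 under another pseudocount, scaling and treatment of repeated symbols: Sirt7 lay between -1.29 and -1.17 and Slc25a10 between -0.83 and -0.69. After subtraction of the median of chromosome 11 outside the span, added after seeing the data, Slc25a10 was at -0.49, short of 0.5. In the last 5 Mb of chromosome 11 the 5fC ratio of Tdg -/- over fl/fl ES cells was 4.04 in the higher-scoring part of each list, 2.47 after merging regions closer than 1 kb and 5.32 by covered length, and the 5hmC ratio was 2.00 and 1.32 under the first and second of these. The EB over ES ratio was 0.64 for 5fC with 60.92 as the lowest score in every list, and 0.79 for 5hmC by covered length. In the stretch 1.3 to 1.5 Mb before the last region, the 5fC ratio was 2.31 when widened to 1.2 to 1.6 Mb. The cause of these moves was not tested, apart from the widening, which adds regions of the sides. Region numbers are limited by the unknown depth, while FPKM is scaled for it and depth limits its precision. The p300 ratio in the stretch, from 12 and 11 regions in Tdg -/- and fl/fl cells, ran from 0.50 to 1.5 over its alternatives.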
